A study of Mus musculus with 10 samples.

Results

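The dopamine receptor genes of the mouse are Drd1, Drd2, Drd3, Drd4 and Drd5. Their 5 rows were taken from the table of raw gene counts, which holds 29883 genes, by the Ensembl identifier of each symbol in the GRCm39 annotation, and all 5 receptors were found. The counts came from the nucleus accumbens (NAc), a part of the ventral striatum, of 5 C57BL/6J (B6) and 5 DBA/2J (D2) mice. All were males that had not received ethanol and were killed at 9 weeks of age, with 1 poly-A library per mouse. B6 and D2 are inbred strains, so every mouse of a strain carries nearly the same genome and no transgene or treatment separates the groups. The comparison asks how the basal expression of the NAc differs between the strains.

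Dopamine receptors are G protein-coupled receptors on the cell surface. The D1 class, Drd1 and Drd5, couples to Gs and Golf proteins that raise cyclic AMP, and the D2 class, Drd2, Drd3 and Drd4, couples to Gi and Go proteins that lower it. In the striatum most projection neurons carry either Drd1, in the direct pathway, or Drd2, in the indirect pathway, while Drd2 and Drd5 are also known in cholinergic interneurons and Drd3 is known for its high level in the ventral striatum.

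Between 96977262 and 111468080 reads per B6 mouse and between 104443243 and 116776714 per D2 mouse were counted on genes. By the quasi-likelihood test of edgeR, adjusted by the Benjamini-Hochberg method over the whole table and called at an adjusted p under 0.05, 18.3% of all genes differed between the strains, and 9.83% were lower in D2. Of the 5 receptors, Drd2 alone passed this test, and it was lower in D2, so that the number of receptors called is close to what the table as a whole gives and says nothing particular of the family. Levels are given below as CPM, the usual rate of counts of a gene relative to the TMM-scaled total of its library, and levels of different genes are compared only as RPKM, which is CPM per kilobase of annotated exon. Values after ± are SDs over the mice of a strain (n = 5 in each strain).

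The B6 replicates 3 and 5 stood apart from the other B6 libraries. The 6 marker genes of cortex projection neurons summed to 965 and 976 CPM in them, against 86.8, 79.4 and 165 CPM in B6 replicates 1, 2 and 4 and between 223 and 608 CPM in D2. The markers that define these neurons, such as Slc17a7, a glutamate transporter of synaptic vesicles, were above 0 in all 10 mice. The same B6 mice were the lowest of their strain for Drd1, Drd3 and Drd5. These libraries were the most alike of all pairs within a strain, with a chi-square of 4.89 per gene over 15388 genes, but differed by more than counting noise, which gives a value near 1, and were kept as separate mice. Results are therefore also given without them, a choice made after seeing the data. Leaving them out does not even out the cortex markers. The remaining B6 mice lie between 79.4 and 165 CPM and the D2 mice between 223 and 608 CPM. In those fits the strains thus also differ in cortex marker level, without overlap.

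RefSeq promoter windows of the receptors are shown first, to give the sequence in front of the genes whose levels and ratios are compared. Each window of the table (build GRCm38.p6) matched GRCm39 at 1 place. The RefSeq start of the Drd3 window lies 8195 bases inside the annotated gene and that of a second Drd1 window 961 bases inside, so these windows do not cover the annotated starts. Of the windows of Drd1, Drd2 and Drd5, the receptors of the 3 ratios that differed between the strains, only the part before the annotated gene start is printed, 5′ to 3′ on the strand of the gene. Capitals mark the GC box letters GGGCGG or their reverse complement. The Drd1 stretch is at chr13:54209761-54209927 (minus strand), the Drd2 stretch at chr9:49251453-49251653 (plus strand) and the Drd5 stretch at chr5:38476602-38476709 (plus strand).
Drd1: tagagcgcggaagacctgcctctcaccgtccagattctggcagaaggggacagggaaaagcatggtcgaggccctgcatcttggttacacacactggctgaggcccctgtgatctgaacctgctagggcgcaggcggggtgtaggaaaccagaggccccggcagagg
Drd2: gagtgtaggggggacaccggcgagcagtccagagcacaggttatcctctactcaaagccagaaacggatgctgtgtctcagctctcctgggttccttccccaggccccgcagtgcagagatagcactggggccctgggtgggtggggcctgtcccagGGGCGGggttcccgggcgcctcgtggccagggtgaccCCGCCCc
Drd5: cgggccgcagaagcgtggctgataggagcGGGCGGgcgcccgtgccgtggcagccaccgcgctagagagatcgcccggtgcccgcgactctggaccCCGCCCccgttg

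The Drd2 and Drd5 stretches each hold 2 GC boxes, and the Drd1 stretch holds 0. Over the whole 300-base windows, which reach from 250 bases before to 50 bases after the RefSeq start, G and C made up 65.7% of the first Drd1 window, 70.3% of Drd2, 70.3% of Drd5, 58% of Drd4 and 42% of Drd3, against a median of 52.7% over 32851 windows. A GC box was found in the windows of Drd1, Drd2, Drd4 and Drd5 and in 35.7% of all windows, while the Drd3 window holds 0 GC boxes and 2 matches to CCAAT, which occurs in 37.4% of all windows. Neither TATAAA, in 13.6% of all windows, nor TGACGTCA, the cyclic AMP response element, in 1.79%, matched a window of any receptor. All motifs were searched on both strands, and overlapping matches were counted. A match is a description of these letters in the reference, which is the B6 genome. The D2 alleles were not analysed here.

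Drd1 (ENSMUSG00000021478, chr13:54204872-54209760) encodes the D1 receptor, the main receptor of direct pathway neurons. Its level was 219, 234, 189, 247 and 191 CPM in B6 replicates 1 to 5 and 198, 194, 214, 199 and 229.6 CPM in D2 replicates 1 to 5. The strains overlapped, with 2 B6 mice above every D2 mouse and 2 B6 mice below every D2 mouse. The B6 mice at the bottom were the cortex-rich replicates 3 and 5.

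Drd1 averaged 216 ± 25.6 CPM in B6 and 207 ± 14.7 CPM in D2. Relative to B6, the log2 fold change in D2 was -0.06 (standard error 0.076, 95% interval -0.23 to 0.10, adjusted p = 0.670, edgeR), so that the interval holds both a small fall and a small rise. Leaving out B6 replicates 3 and 5 gave -0.17, with an adjusted p of 0.054 from edgeR. With the level of the striatal projection neuron markers as a covariate it was 0.34 (adjusted p = 0.0107, edgeR), and with that of the indirect pathway markers 0.37 (adjusted p = 0.0013, edgeR). The summed level of neither marker list overlapped between the strains, so that in these fits the marker level and the strain can be told apart only within each strain.

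Drd5 (ENSMUSG00000039358, chr5:38476710-38479861) encodes the D5 receptor, the second member of the D1 class. Its level in B6 was 4.21, 4.35, 3.09, 3.68 and 3.40 CPM, and in D2 it was 6.04, 3.74, 4.36, 4.33 and 5.51 CPM. In D2, 3 mice were above every B6 mouse, and in B6, 3 mice were below every D2 mouse, but the ranges overlapped.

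The mean level of Drd5 was 3.75 ± 0.532 CPM in B6 and 4.80 ± 0.945 CPM in D2, a fold of 1.28. Its log2 fold change of 0.36 had a standard error of 0.14 and a 95% interval of 0.06 to 0.65, and did not pass the threshold after adjustment (adjusted p = 0.0979, edgeR). An exact permutation test over the mice (two-sided) gave p = 0.0476 for this gene alone. DESeq2 gave the same log2 fold change of 0.36 with an adjusted p of 0.0492, and without D2 replicate 2, the lowest D2 mouse, edgeR gave 0.43 and an adjusted p of 0.0445. Without the cortex-rich B6 mice the log2 fold change was 0.23 (adjusted p = 0.323, edgeR), whereas with the cortex marker level as a covariate it was 0.44 (adjusted p = 0.0037, edgeR). The call for Drd5 thus depended on the tool and on single mice.

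Drd2 (ENSMUSG00000032259, chr9:49251654-49319477) encodes the D2 receptor of indirect pathway neurons, which also serves as the autoreceptor of dopamine neurons. Its level in B6 was 139, 145, 141, 158 and 143 CPM, and in D2 it was 105, 102, 106, 98.8 and 113 CPM. All B6 values lay above all D2 values, and the cortex-rich B6 mice were within the range of the other B6 mice.

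Drd2 fell from 145 ± 7.45 CPM in B6 to 105 ± 5.38 CPM in D2, so that D2 was 27.4% lower. Its log2 fold change was -0.46 (standard error 0.045, 95% interval -0.56 to -0.36, adjusted p = 8.6e-06, edgeR). The exact permutation test of this gene gave p = 0.0079, the smallest possible for 5 mice against 5. Drd2 was the 1 receptor of 5 whose levels did not overlap between the strains, and the levels of 16% of all genes did not overlap. Among the 5478 genes called, 3008 changed by at least as much, so that the fall of Drd2 was of middling size with a small spread between mice.

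The call for Drd2 held under every alternative that was run. Each mouse left out in turn gave log2 fold changes between -0.49 and -0.43, and the fit without B6 replicates 3 and 5 gave -0.48 (adjusted p = 2.1e-05, edgeR). The smallest sizes came with a marker covariate: -0.28 with the striatal projection neuron markers (adjusted p = 0.0203, edgeR) and -0.30 with the indirect pathway markers (adjusted p = 0.0157, edgeR). As for Drd1, the summed levels of these lists did not overlap between the strains. In these fits the marker level and the strain can be told apart only within each strain. Both strains were aligned to the B6 genome. In bulk tissue, fewer cells of a type and less RNA per cell cannot be told apart.

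**Figure D1:**
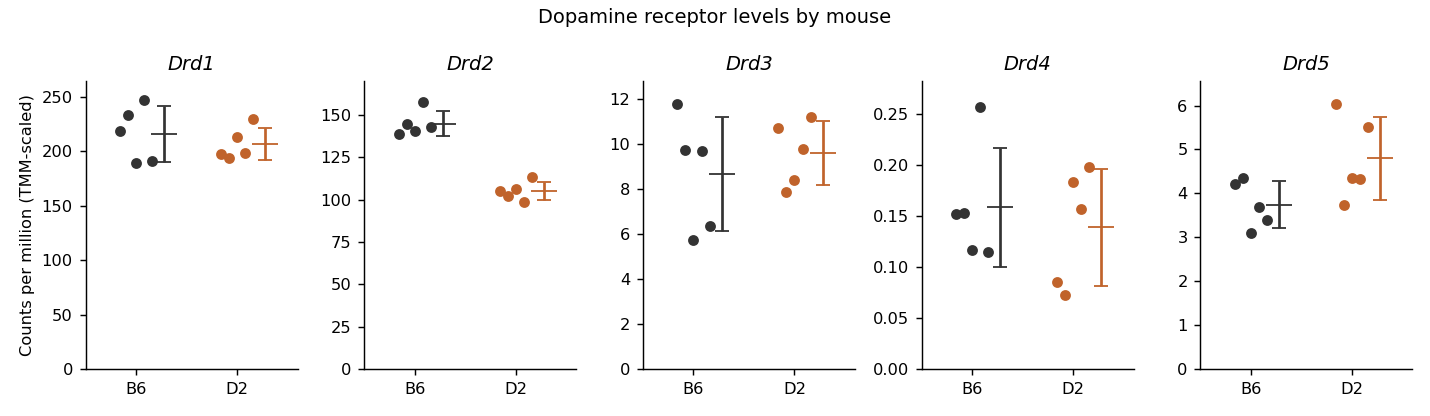
Level of each dopamine receptor in TMM-scaled CPM (y axis, from 0, a separate scale for each of the 5 receptors) in the 5 B6 and 5 D2 mice (points), with the mean and SD of each strain (line and bar). The Drd2 points of the strains do not overlap, while those of the other receptors do.

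Drd3 (ENSMUSG00000022705, chr16:43574389-43643295) encodes the D3 receptor. Its level in B6 was 11.8, 9.74, 5.71, 9.68 and 6.36 CPM, and in D2 it was 10.7, 7.87, 8.39, 9.76 and 11.2 CPM. The cortex-rich B6 mice were below every D2 mouse, and the highest mouse of all was also a B6 mouse. Among the receptors other than Drd4, Drd3 in B6 had the largest spread between mice, with a coefficient of variation of 29.4% against 15.0% in D2, while counting noise alone gives about 3.18%.

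The mean level of Drd3 was 8.65 ± 2.54 CPM in B6 and 9.58 ± 1.44 CPM in D2. The log2 fold change of 0.15 did not differ from 0 beyond the spread between mice (standard error 0.18, 95% interval -0.25 to 0.54, adjusted p = 0.667, edgeR). When B6 replicates 3 and 5 were left out the sign turned, to -0.12 (adjusted p = 0.558, edgeR), and with the cortex marker level as a covariate Drd3 was higher in D2, with a log2 fold change of 0.33 (adjusted p = 0.0056, edgeR). The direction for Drd3 thus rested on how these mice were treated.

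Drd4 (ENSMUSG00000025496, chr7:140871902-140876377) encodes the D4 receptor, which is known more from the prefrontal cortex and retina than from the striatum. It had 17, 16, 11, 26 and 12 raw counts in B6 and 10, 8, 21, 18 and 21 in D2. At a mean of 16 counts, counting noise alone gives a coefficient of variation of about 25%. Its level was 0.159 ± 0.0582 CPM in B6 and 0.139 ± 0.0574 CPM in D2. The 95% interval of its log2 fold change of -0.19 ran from -0.92 to 0.54 (adjusted p = 0.775, edgeR), so that it holds both a fall and a rise.

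**Figure D2:**
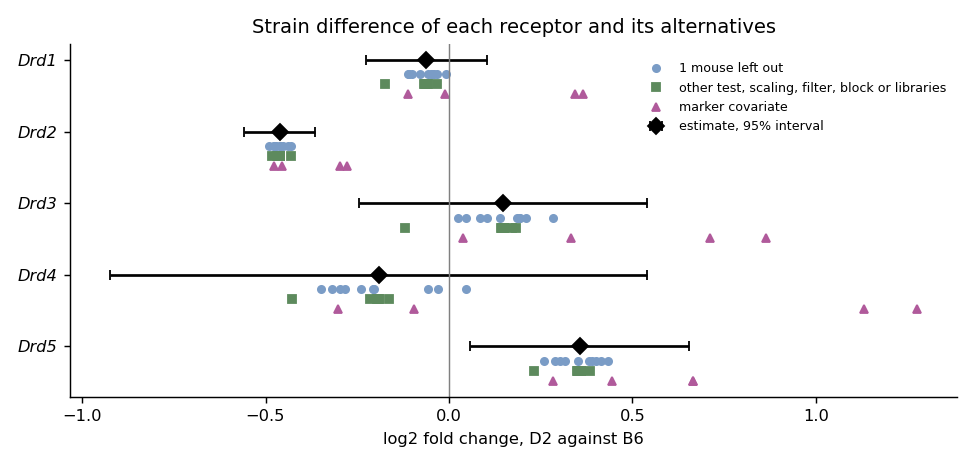
Log2 fold change of D2 against B6 (x axis, 0 is no difference) for the 5 receptors (y axis), with the edgeR estimate and its 95% interval (black), the fits without 1 mouse (circles), with another test, scaling, filter, block or set of libraries (squares) and with a marker covariate (triangles). The Drd2 values all lie below 0, the highest at -0.28, and the other receptors have values on both sides of 0, except Drd5, whose values lie between 0.23 and 0.66.

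Per kilobase of exon, Drd1 and Drd2 were the most abundant receptors. The RPKM of Drd1 was 47.4 ± 5.61 in B6 and 45.4 ± 3.24 in D2, and that of Drd2 was 46.1 ± 2.37 in B6 and 33.5 ± 1.71 in D2. Drd3 followed with 5.05 ± 1.48 and 5.60 ± 0.839 RPKM, then Drd5 with 1.19 ± 0.169 and 1.52 ± 0.300 RPKM and Drd4 with 0.0467 ± 0.0171 and 0.0410 ± 0.0169 RPKM in B6 and D2.

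Drd1 exceeded Drd2 in 8 of 10 mice. The exceptions were B6 replicates 3 and 5, and in B6 the levels of Drd1 and Drd2 did not differ beyond their spread. Each of the later receptors was above the next in all 10 mice: Drd2 was 5.36 to 13.4 times Drd3, Drd3 was 3.26 to 5.14 times Drd5, and Drd5 was 15.4 to 76.6 times Drd4. Among the 29519 genes with an annotated length, the RPKM of Drd1 lay between the percentiles 97.9 and 98.6 over the mice and that of Drd2 between 96.99 and 98.4. Drd3 lay between 71.8 and 82.5, Drd5 between 56.9 and 64.0 and Drd4 between 17.2 and 30.6, so Drd4 was among the weakly detected genes of the table. These lengths count every annotated exon of a gene, and the isoforms in use were not measured.

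The summed RPKM of the receptors was 99.8 ± 8.57 in B6 and 86.1 ± 5.44 in D2 (exact permutation test, two-sided, p = 0.0238). Drd1 held 47.4% ± 1.66 of this sum in B6 and 52.8% ± 1.08 in D2, while Drd2 held 46.4% ± 2.75 in B6 and 38.9% ± 0.881 in D2. Both shares did not overlap between the strains (exact permutation test, p = 0.0079 for each). The share of Drd5 rose from 1.19% ± 0.131 to 1.76% ± 0.306 without overlap (exact permutation test, p = 0.0079). The share of Drd3 went from 5.01% ± 1.25 to 6.49% ± 0.794, which is 1.48 percentage points more in D2 (exact permutation test, p = 0.0397), and 0.703 points more without B6 replicates 3 and 5 (p = 0.179, exact permutation test). Since shares sum to a whole, a lower Drd2 share raises those of the others.

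The ratio of a pair of receptors within a mouse needs no scaling between libraries. All 10 pairs of receptors were compared on the log2 scale by exact permutation tests (two-sided), with Benjamini-Hochberg adjustment over the 10 ratios. The ratios share receptors, so the tests are not independent.

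Per kilobase, the Drd1 to Drd2 ratio was 1.09, 1.11, 0.927, 1.08 and 0.923 in B6 replicates 1 to 5 and 1.296, 1.31, 1.39, 1.39 and 1.398 in D2. All D2 values lay above all B6 values, and Drd1 and Drd2 were near parity in B6. The mean ratio was 1.03 ± 0.0934 in B6 and 1.36 ± 0.0492 in D2, a log2 difference of 0.41 (standard error 0.064; exact permutation p = 0.0079, adjusted p = 0.0265). Without B6 replicates 3 and 5 the log2 difference was 0.31, again without overlap (exact permutation p = 0.0357, the smallest possible for 3 mice against 5).

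The Drd2 to Drd5 ratio was 33.0, 33.4, 45.7, 42.9 and 42.2 in B6 and 17.5, 27.4, 24.5, 22.9 and 20.6 in D2. The strains did not overlap, and the log2 difference of -0.81 was the largest in size of the 10 ratios (standard error 0.15; exact permutation p = 0.0079, adjusted p = 0.0265). The receptors of this pair had log2 fold changes of opposite sign, although only the fall of Drd2 passed the test by itself.

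The Drd1 to Drd5 ratio was 36.0, 37.2, 42.4, 46.4 and 38.9 in B6 and 22.6, 35.9, 33.96, 31.8 and 28.8 in D2. The mean was 40.2 ± 4.24 in B6 and 30.6 ± 5.19 in D2, a log2 difference of -0.40 (standard error 0.13; exact permutation p = 0.0079, adjusted p = 0.0265). The absence of overlap was narrow here, since the lowest B6 value was 35.957 and the highest D2 value 35.944. It was -0.39 without B6 replicates 3 and 5.

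The Drd2 to Drd3 ratio was 6.42, 8.11, 13.4, 8.86 and 12.2 in B6 and 5.36, 7.09, 6.90, 5.52 and 5.52 in D2. The highest B6 values belonged to the cortex-rich mice, and the strains overlapped. The log2 difference of -0.65 (standard error 0.21) had an exact permutation p of 0.0238 and did not pass after adjustment (adjusted p = 0.0595). It was -0.36 without B6 replicates 3 and 5 (exact permutation p = 0.107).

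The other 6 ratios, among them all with Drd4, overlapped between the strains and had adjusted p-values between 0.347 and 0.556 (exact permutation tests). Their log2 differences ran from -0.58 for Drd4 to Drd5, with a standard error of 0.36, to 0.43 for Drd3 to Drd4, with a standard error of 0.33. Of these ratios, those with Drd4 rest on 8 to 26 counts of that gene in a mouse.

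Summed by class, the reads per kilobase of Drd1 and Drd5 over those of Drd2, Drd3 and Drd4 gave 0.968, 1.02, 0.883, 0.992 and 0.875 in B6 and 1.14, 1.18, 1.25, 1.21 and 1.22 in D2. All D2 mice were above 1 and above every B6 mouse. The mean was 0.946 ± 0.0643 in B6 and 1.20 ± 0.0415 in D2, a log2 difference of 0.34 (standard error 0.050; exact permutation p = 0.0079) that was 0.27 without B6 replicates 3 and 5. Both classes are dominated by 1 gene, so this ratio follows that of Drd1 to Drd2.

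**Figure D3:**
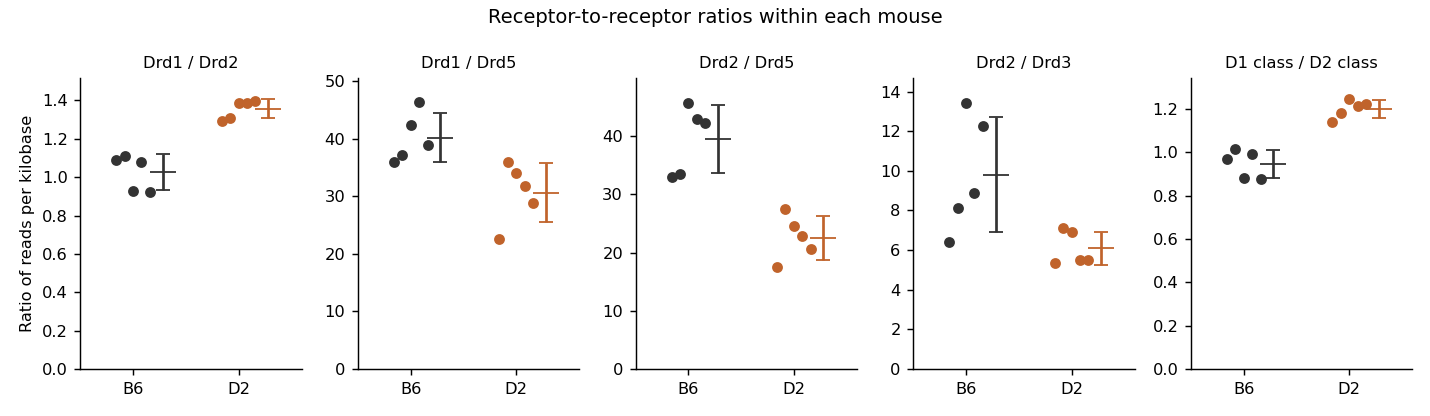
Receptor-to-receptor ratios of reads per kilobase within each mouse (y axis, from 0, a separate scale in each of the 5 panels) for the 5 B6 and 5 D2 mice (points), with the mean and SD of each strain. The strains do not overlap for Drd1 to Drd2, Drd1 to Drd5, Drd2 to Drd5 and the class ratio, and they overlap for Drd2 to Drd3.

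The receptors varied together to different degrees among mice of a strain. After each strain's mean was subtracted from the log2 CPM, over 10 mice, Drd1 correlated with Drd2 (Pearson's r = 0.72, Spearman's rho = 0.68), Drd3 (r = 0.73, rho = 0.77) and Drd4 (r = 0.79, rho = 0.83), and Drd3 with Drd5 (r = 0.80, rho = 0.78). The other pairs were less related, with r of 0.51 for Drd1 and Drd5, 0.45 for Drd3 and Drd4, 0.33 for Drd2 and Drd5, 0.27 for Drd2 and Drd3 and 0.22 for Drd4 and Drd5, while Drd2 and Drd4 had an r of 0.60. These values describe 10 mice that share the scaling, the dissection and, in part, their cortex marker level, and no test was made of them.

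Each receptor was also set against the mean log2 CPM of the markers of each cell type, with strain means subtracted in the same way. Drd1 was closest to the indirect pathway list (r = 0.98). The striatal projection neuron list (r = 0.94) and the direct pathway list (r = 0.88) followed. Drd2 was closest to the striatal projection neuron list (r = 0.84), followed by the indirect pathway list (r = 0.74). Drd3 was closest to the cholinergic interneuron list (r = 0.95) and the direct pathway list (r = 0.94), and Drd5 to the cholinergic interneuron list (r = 0.82). The cortex list ran the other way, with r = -0.93 for Drd3, -0.76 for Drd5, -0.73 for Drd1 and -0.24 for Drd2.

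**Figure D4:**
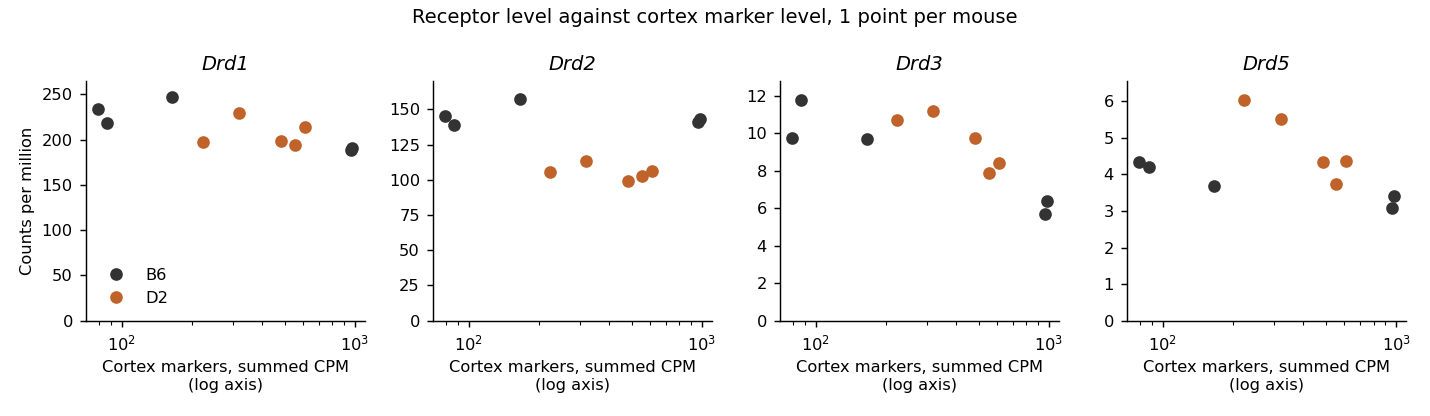
Level of Drd1, Drd2, Drd3 and Drd5 in CPM (y axis, from 0) against the summed level of the 6 cortex projection neuron markers in CPM (x axis, log scale), 1 point per mouse, B6 in black and D2 in orange. The B6 replicates 3 and 5, at 965 and 976 on the x axis, have the lowest Drd1, Drd3 and Drd5 levels of B6, while their Drd2 levels lie among those of the other B6 mice.

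By the highest r within strains among the 15387 other genes that averaged 100 counts or more, the genes most like Drd1 were Pcdhb9 (r = 0.99), Mrto4 (r = 0.98) and Zfp706 (r = 0.98). Those most like Drd2 were Hpca (r = 0.96), which encodes the neuronal calcium sensor hippocalcin, and Lrrc10b (r = 0.94). Hpca and Lrrc10b were also lower in D2, with log2 fold changes of -0.29 (adjusted p = 0.0022, edgeR) and -0.39 (adjusted p = 0.028, edgeR). For Drd3 they were Gpr149, Fgfr1 and Npy5r (r = 0.98 for each), and for Drd5 Acly (r = 0.99), Rfk (r = 0.97) and Iscu (r = 0.96). With 10 mice and so many genes, high values of r arise readily, and the same mice choose and describe these genes.

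Genes for proteins that carry or shape the receptor signal were examined in 4 lists, beside the whole table, in which 9.83% of genes fell and 8.5% rose in D2. In the list for D1-class coupling, 1 of 9 genes rose and 2 fell in D2, with a median log2 fold change of -0.12 against 0.0036 over all genes. Adcy5, the main adenylyl cyclase of striatal neurons, fell by 0.30 on the log2 scale (adjusted p = 0.0027, edgeR) and Gnb2, a G protein beta subunit, by 0.13 (adjusted p = 0.032, edgeR). Prkaca, a catalytic subunit of protein kinase A, rose by 0.15 (adjusted p = 0.0040, edgeR). In the fit without B6 replicates 3 and 5, 2 genes of this list rose and 7 fell. Over the whole table that fit called 5745 genes (19.2%), with 9.68% of all genes higher and 9.54% lower in D2.

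In the list for D2-class coupling, 0 of 12 genes rose and 2 fell in edgeR, with a median log2 fold change of -0.0032. Gnao1, the Go alpha subunit, fell by 0.20 (adjusted p = 0.0083, edgeR), and Rgs9, which speeds the shut-off of Gi and Go proteins in the striatum, by 0.25 (adjusted p = 0.014, edgeR), both on the log2 scale. Without the cortex-rich B6 mice 3 genes of this list rose and 2 fell.

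Among the 9 genes of receptor desensitisation, 3 rose and 1 fell, with a median log2 fold change of 0.11. Grk5, a G protein-coupled receptor kinase, rose by 0.28 (adjusted p = 6.1e-04, edgeR), Grk6 by 0.11 (adjusted p = 0.042, edgeR) and Arrb2, which encodes beta-arrestin 2, by 0.18 (adjusted p = 0.0024, edgeR) on the log2 scale. Arrb1, which encodes beta-arrestin 1, fell by 0.16 (adjusted p = 0.012, edgeR). With the cortex-rich B6 mice left out, 4 genes of this list rose and 1 fell.

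Of the 13 genes for proteins that bind or transport the receptors, 1 rose and 3 fell, with a median log2 fold change of -0.04. Ncs1, a calcium sensor that binds the D2 receptor, rose by 0.17 (adjusted p = 0.0029, edgeR). Dlg4, the scaffold PSD-95, fell by 0.17 (adjusted p = 0.0059, edgeR), Klhl12, a ubiquitin ligase adaptor that binds the D4 receptor, by 0.12 (adjusted p = 0.010, edgeR) and Ppp1r9b, the spine protein spinophilin, by 0.18 (adjusted p = 0.035, edgeR). Leaving out the cortex-rich B6 mice gave 3 higher and 3 lower in D2. Over the lists, with all mice, the called changes were between 0.11 and 0.30 in size on the log2 scale, below the 0.46 of Drd2.

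The markers of the cells that carry the receptors differed in part, beside 9.83% of all genes lower and 8.5% higher in D2. Of the 5 indirect pathway markers, 4 fell in D2 and 0 rose, with a median log2 fold change of -0.42. Penk, the enkephalin precursor, fell by 0.52 (adjusted p = 0.0074, edgeR) and Adora2a, an adenosine receptor, by 0.39 (adjusted p = 0.0056, edgeR), and their list summed to 1178 to 1659 CPM in B6 and 876 to 1141 CPM in D2, without overlap. Of the 6 markers of striatal projection neurons in general, 5 fell and 0 rose, with a median of -0.28, and their sum of 4621 to 5500 CPM in B6 and 3738 to 4463 CPM in D2 did not overlap either.

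Among the 6 direct pathway markers 0 passed the test in edgeR, with a median log2 fold change of 0.03. The substance P precursor Tac1 had a log2 fold change of -0.02 (adjusted p = 0.953, edgeR) and the dynorphin precursor Pdyn one of 0.01 (adjusted p = 0.963, edgeR). Without B6 replicates 3 and 5, 1 direct pathway marker rose and 2 fell, beside 9.68% of all genes higher and 9.54% lower in D2. All 5 indirect pathway and all 6 striatal projection neuron markers fell in that fit. Drd2 and the indirect pathway and striatal lists were thus all lower in D2, but a comparison of B6 with D2 does not show whether these falls are linked. The part of these lists in the fall of Drd2 was not tested. Adcy5 and Rgs9 are in both the striatal and a signalling list.

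The 4 cholinergic interneuron markers had a median log2 fold change of 0.30, and 0 passed in edgeR, with sums of 42.9 to 99.6 CPM in B6 and 72.6 to 119.6 CPM in D2. The median turned to -0.05 without B6 replicates 3 and 5, again with 0 called in edgeR, and the sums of these mice, 42.9 and 44.1 CPM, were the lowest of all. The enzyme Chat had a log2 fold change of 0.26 (adjusted p = 0.463, edgeR). Of the 4 midbrain dopamine neuron markers, Th, the rate-limiting enzyme of dopamine synthesis, fell by 0.30 (adjusted p = 0.030, edgeR) and the other 3 did not pass, while 2 of the 4 fell without B6 replicates 3 and 5. The dopamine transporter Slc6a3 was at 0.515 ± 0.0613 CPM in B6 and 0.556 ± 0.133 CPM in D2, low levels against those of Drd1 and Drd2.

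For other cells, 0 of 6 cortex, 3 of 5 oligodendrocyte, 3 of 5 astrocyte, 2 of 5 microglia, 0 of 4 endothelial, 1 of 4 ependymal or choroid plexus and 3 of 5 blood genes passed in edgeR, beside 18.3% of all genes. All of the oligodendrocyte and blood calls were lower in D2, 1 astrocyte and 1 microglia call was higher, and the ependymal call was of Folr1, with 0 counts in some libraries. The blood genes did not change by a common amount. The globin gene Hba-a2 had a log2 fold change of -5.47 (adjusted p = 5.0e-10, edgeR) and Hba-a1 one of 0.08 (adjusted p = 0.780, edgeR). Whether the strains differ in blood content was not tested. The oligodendrocyte markers summed to 3733 to 5305 CPM in B6 and 2859 to 4175 CPM in D2, and the highest sums, 5305 and 5278 CPM, were those of B6 replicates 3 and 5. Without these mice 0 of the oligodendrocyte markers passed in edgeR, with a median log2 fold change of -0.25 in place of -0.34, and 2 of the 5 astrocyte, 2 of the 5 microglia and 2 of the 5 blood genes did. Their part in the receptor levels was not tested. With B6 replicates 3 and 5 left out, all 6 cortex markers were higher in D2, with a median log2 fold change of 1.94. The log2 fold change of Drd2 was -0.48 in that fit. Cortex marker level and strain do not overlap there, so their parts in this value cannot be told apart.

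No protein-coding neighbour of a receptor passed the test. The nearest protein-coding genes on the sides of Drd2 are Ankk1, 7016 bases away with a mean of 3.9 counts (adjusted p = 0.483, edgeR), and Tmprss5, 222417 bases away with a log2 fold change of -0.02 (adjusted p = 0.953, edgeR). For the other receptors, the nearest protein-coding genes on each side, which were Msx2 and Sfxn1 at Drd1, Tigit and Qtrt2 at Drd3, Sct and Deaf1 at Drd4 and Otop1 and Slc2a9 at Drd5, did not pass the test either. Deaf1, only 712 bases from Drd4, was at 41.0 CPM in B6 and 41.3 CPM in D2.

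Some receptors share their place with other annotated genes. The antisense lncRNA Gm46111 shares 240 exonic bases with Drd2 and the antisense lncRNA Gm26560 shares 1726 with Drd5, which is more than the overlap of any other gene with a receptor. Gm26560 had a mean of 11 counts against 465 for Drd5, and Gm46111 was not analysed here. The strand setting of the counting is not given in the sources used here, so reads in the shared bases cannot be assigned to one strand with certainty. Within Drd3 lies the miRNA gene Gm54424, which shares 0 exonic bases with it and rose by 1.21 on the log2 scale (adjusted p = 0.026, edgeR) at a mean of 7.5 counts.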

How the data were processed

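Per the labels and the methods of the study, the authors used fastp for trimming, STAR 2.7.10b for the alignment of both strains to the B6 genome (GRCm39), SAMtools 1.6 for sorting and featureCounts for counting, whose version and strand setting are not given in the sources used here. A D2 read that differs from the B6 reference can be lost more easily. Raw counts per gene were deposited, in which the lowest median over the libraries was 0.5. The labels and the methods name different providers of the libraries. Each mouse is 1 replicate.

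Counts were fitted here with edgeR 4.0.16 under R 4.3.3 (TMM and the two-sided quasi-likelihood test), with strain as the only factor and Benjamini-Hochberg adjustment over 29883 genes. The study's own tool, DESeq2 (version 1.42.0 here), was an alternative. CPM used TMM-scaled library sizes, and RPKM the union of annotated exons (GENCODE, GRCm39), which held 29519 genes of the table. Ratios and shares were compared with exact permutation tests. The fits were tested on simulated data. Python 3.11.15 with scipy 1.17.1 was used.

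The members and the gene lists were chosen with earlier results of these data known. Genes named were the receptors, genes that overlap or neighbour them, the called members of the signalling lists (at most 4 each), the first genes of the marker lists and the 3 genes most like each receptor with a mean of at least 100 counts. Not every marker gene under this rule is named, and 1 gene under it is not reported here. Alternatives were other scalings, low-count filters, DESeq2, the replicate number as a block, marker covariates, a linear ratio, 10 added counts, each mouse left out and, chosen after seeing the data, the covariates of the indirect and direct pathway markers and the fits without B6 replicates 3 and 5.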

Additional observations from a re-analysis of the deposited data

Results flagged for a closer look

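In B6 replicate 4, Drd4 was at 0.257 CPM, and its gap to the next B6 mouse was 0.728 of the range of the strain, above Dixon's critical value of 0.71 for 5 samples. The same mouse stood apart in the Drd4 to Drd5 ratio per kilobase, at 0.0648 with a gap of 0.885 of the range, and in the share of Drd4 in the summed receptor level, at 0.0681% with a gap of 0.743. All of these values rest on the same 26 raw counts of Drd4. Of the 42 groups of 5 mice examined, chance alone would flag about 1 in 20.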

How the results depend on the processing

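Of 350 alternative values, 317 kept their direction and their side of the threshold, or for counts stayed within 1.5 times. Drd2 did so in all of its alternatives, by its adjusted p. For ratios and shares the threshold was applied to the unadjusted exact p. By that rule the Drd1 to Drd2, Drd1 to Drd5, Drd2 to Drd5 and class ratios also did so in all of their alternatives. Whether the ratios between pairs of receptors would pass after adjustment in these alternatives was not tested. The cause of the changes was not tested. On the log2 scale, Drd1 turned to 0.34 with the striatal marker covariate and to 0.37 with the indirect pathway covariate, and Drd4 to 1.28 and 1.13. With these covariates 2175 and 3339 genes were called. With the cortex covariate Drd3 was 0.33 and Drd5 0.44, both past the threshold, and DESeq2 gave 0.36 for Drd5. Without B6 replicates 3 and 5, Drd3 turned to -0.12, the Drd2 to Drd4 ratio to 0.017 and the Drd4 share to -0.0049 points. Without these mice 9 D1-class and 5 D2-class coupling genes were called, and the Drd3 share (0.703 points) no longer passed. The Drd2 to Drd3 ratio (-0.36) no longer passed by its unadjusted p. After adjustment that ratio had not passed with all mice either. From raw counts without lengths the Drd3 share differed by 0.635 points, which did not pass. Under total counts 2 of the receptor-binding and trafficking partners were called.

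With each mouse left out in turn, Drd1 ran from -0.11 to -0.0087, Drd2 from -0.49 to -0.43, Drd3 from 0.02 to 0.28, Drd4 from -0.35 to 0.047 (the last without B6 replicate 4) and Drd5 from 0.26 to 0.43, and 4636 to 5676 genes were called. The Drd1 to Drd4 ratio ran from -0.0041 (without D2 replicate 2) to 0.30. The Drd3 share differed by 1.14 to 1.94 points and lost its call in 7 of the 10 fits, and the Drd4 share by -0.0027 to 0.0065 points, negative in 5 fits (-0.000994, -0.00137, -0.00272, -0.00122 and -0.00258). With 1 mouse left out the smallest possible exact p is 0.0159.

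Whether the replicate numbers pair mice of the strains was not tested, and the values were mixed. Same-numbered mice deviated from their strain means with r of 0.37, -0.42, 0.37, 0.03 and -0.29 over 15388 genes, and 2 of the 5 B6 mice correlated best with their own number. The replicate block gave -0.46 for Drd2 and 4731 called genes, and changed no call among the receptors. Drd4, at 8 to 26 counts, was removed by the filter of 10 counts in every library and was the receptor most limited by depth.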
